A study of Homo sapiens with 7 samples.

Results

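Hepatocyte identity is held by a small set of transcription factors, and 8 of their genes were followed here: HNF4A, HNF4G, FOXA1, FOXA2, FOXA3, CEBPA, CEBPB and ONECUT1. They were taken by symbol from a table of 58174 genes, and each symbol was found. RNA abundance came from Huh-7 cells, a line grown from a human hepatocellular carcinoma, which received either control siRNA (siC, 3 libraries) or an siRNA pool that targets IGF2BP1 (siIGF2BP1, 4 libraries) and were harvested at 72 h. IGF2BP1 is an oncofetal RNA-binding protein, and the comparison asked which mRNAs depend on it in liver cancer cells. Both groups are the same unmodified line and differ, by their labels, in the siRNA alone. The labels do not say whether libraries came from separate cultures, so p-values measure the spread between these libraries, which may be technical. In bulk RNA, fewer cells with a transcript and less transcript per cell cannot be told apart.

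HNF4A is a nuclear receptor that occupies the promoters of many liver genes, and HNF4G is its close homologue. The FOXA proteins are forkhead factors that open liver enhancers in the embryo, CEBPA and CEBPB are leucine zipper factors tied to metabolic and acute phase genes, and ONECUT1 (HNF6) acts in both hepatocytes and bile duct cells. These factors bind the promoters of each other as well as those of secreted liver proteins, and together they distinguish a hepatocyte from its embryonic neighbours.

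Family members share identical stretches of coding sequence, and a read that lies wholly within such a stretch fits more than 1 gene. The read length is not given in the sources used here. The first 3 sequences below are 75 bases from the forkhead domain of each FOXA gene (GRCh38: FOXA1 at chr14:37592202-37592276, minus strand; FOXA2 at chr20:22582675-22582749, minus strand; FOXA3 at chr19:45872354-45872428, plus strand). Each lies in exon 2 of 2, inside the coding sequence. Capitals mark the 16 positions at which the 3 genes are not alike.
FOXA1: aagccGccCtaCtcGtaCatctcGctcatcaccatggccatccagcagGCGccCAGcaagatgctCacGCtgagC
FOXA2: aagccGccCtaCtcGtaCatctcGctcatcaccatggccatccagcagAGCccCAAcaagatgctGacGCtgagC
FOXA3: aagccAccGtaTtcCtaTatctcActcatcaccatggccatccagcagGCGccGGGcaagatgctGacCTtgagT
FOXA2 differed from FOXA1 at 5 of the 75 bases and FOXA3 at 12. FOXA1 and FOXA2 shared an identical run of 48 bases, and either gene shared at most 29 with FOXA3.

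The next pair of sequences comes from the basic region of the C/EBP factors, which contacts DNA (CEBPA at chr19:33301479-33301553, minus strand; CEBPB at chr20:50191862-50191936, plus strand). Both genes have a single exon, and capitals mark the 5 of 75 bases that differ.
CEBPA: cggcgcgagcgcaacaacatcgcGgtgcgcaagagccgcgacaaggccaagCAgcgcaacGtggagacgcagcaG
CEBPB: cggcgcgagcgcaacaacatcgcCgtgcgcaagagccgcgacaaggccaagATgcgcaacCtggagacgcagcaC
The longest identical run of this pair was 27 bases, against 17 for HNF4A and HNF4G. How the authors' counting treated reads that fit several genes was not given in the sources used here, so the values of close relatives are uncertain by the share of such reads.

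CEBPA, FOXA3 and CEBPB also shared a TATA box in their RefSeq promoters (GRCh38.p14). Shown are the 60 bases before each start, with the motif TATAAA in capitals (CEBPA at chr19:33302535-33302594, minus strand; FOXA3 at chr19:45864266-45864325, plus strand; CEBPB at chr20:50190770-50190829, plus strand).
CEBPA: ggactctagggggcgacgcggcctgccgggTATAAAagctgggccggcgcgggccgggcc
FOXA3: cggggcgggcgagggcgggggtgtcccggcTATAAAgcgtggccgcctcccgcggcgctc
CEBPB: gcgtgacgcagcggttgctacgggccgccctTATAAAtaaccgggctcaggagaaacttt
The motif began 30 bases before the start in CEBPA and FOXA3 and 29 bases before it in CEBPB. RefSeq promoter windows were matched for 6 of the 8 genes (8 windows), and 3 of the 8 windows held TATAAA, against 10.7% of 35116 promoters searched on both strands in the same way. GGGCGG, the GC box, was in 8 of 8 windows and in 42.6% of all promoters. ATTGATT, a core of the HNF6 site, was in 1 window, that of HNF4A, 34 bases before the start, and in 1.98% of all promoters. No window held TGTTTAC (a forkhead core, 2.98% of all promoters), TTGCGCAA (a C/EBP palindrome, 0.131%) or CAAAGTCCA (an HNF4 site, 0.325%). A match of letters is a description and not a bound site.

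Libraries held between 12826550 and 33212205 reads on genes. Abundance is given as FPKM, fragments scaled to gene length and library size, so levels of different genes can be set side by side per length. IGF2BP1 itself, at 82.2 ± 2.03 FPKM in siC (SD, n = 3), was at 15.8 ± 0.583 FPKM after depletion (SD, n = 4), 19.2% of the control level. Of 14839 genes that averaged 1 FPKM or more, 583 passed the threshold of 0.01 (limma, Benjamini-Hochberg adjusted p), which is 3.93% of those tested. The library siC replicate 3 stood apart from its group. Its log2 values correlated across genes at 0.916 and 0.929 with the other siC libraries, which correlated at 0.971 with each other. Results are therefore given with and without it, and without it 1523 genes, or 10.3%, passed.

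The liver label of the line was checked on marker genes. In siC, AFP was at 3151 FPKM, ALB at 1814 and GPC3 at 340, and all 10 hepatocyte and hepatoma markers passed the filter. Of 15 genes listed as textbook targets of HNF4A, 9 passed the filter. Others of them, the bile acid enzyme CYP8B1 and the clotting factor F9, were at 0 in all 7 libraries. Of 5 biliary markers KRT7 was at 0 in all libraries, while KRT19, SOX9, EPCAM and SPP1 passed the filter. Of 5 intestine and pancreas markers PTF1A and INS were at 0 and CDX2, PDX1 and LGR5 passed. PECAM1 and CD14 were the 2 of 7 mesenchymal, endothelial and blood markers that passed, and none of 3 ovarian markers did.

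All 8 factor genes were expressed and tested, and their levels spanned a wide range. In siC, CEBPA stood first at 246 ± 6.40 FPKM (SD, n = 3), above 99.0% of the genes tested. HNF4A followed at 46.9 ± 9.43, FOXA3 at 34.5 ± 2.18, CEBPB at 25.5 ± 2.78, FOXA1 at 25.1 ± 3.19, ONECUT1 at 11.1 ± 2.97, FOXA2 at 7.82 ± 4.25 and HNF4G at 5.79 ± 0.549 FPKM. Of these neighbours, CEBPB and FOXA1 overlapped between libraries, as did ONECUT1 and FOXA2, and FOXA2 and HNF4G. In siIGF2BP1 the order was the same down to ONECUT1, with CEBPA at 235 ± 11.6 FPKM (SD, n = 4). There CEBPB and FOXA1 no longer overlapped, FOXA3 and CEBPB did, and HNF4G (7.83 ± 0.296) stood above FOXA2 (6.73 ± 1.22) with overlapping libraries. The HNF4A level depends on the gene length in the table, 7311 bases, which is longer than the 4645 bases of its canonical transcript.

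**Figure D1:**
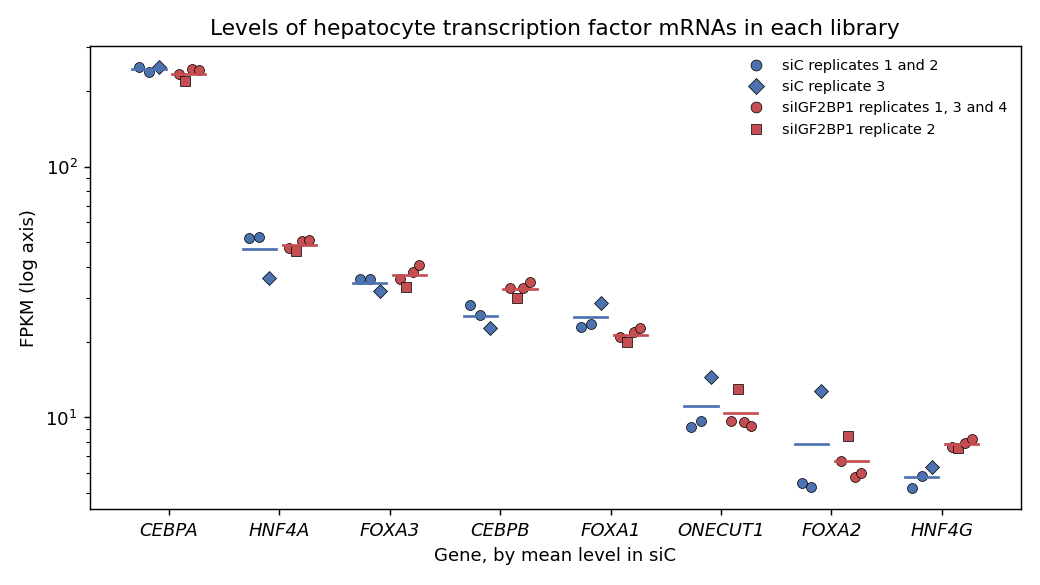
FPKM of the 8 factor genes (log axis) in each library, ordered by mean level in siC. Blue points are the 3 siC and red points the 4 siIGF2BP1 libraries, bars are group means, and siC replicate 3 (diamond) and siIGF2BP1 replicate 2 (square) have their own symbols. CEBPA lies near 246 FPKM in siC, HNF4G is higher in every siIGF2BP1 library, and the diamond lies far above its group in FOXA2.

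None of the 8 factor mRNAs passed the threshold of 0.01 after depletion of IGF2BP1, where 3.93% of all genes tested did. At an unadjusted p under 0.05 there were 2 of 8, HNF4G and CEBPB, where 25.9% of all genes did, and limma's voom on the recovered reads also called 0 of 8. The same pair passed an adjusted threshold of 0.05, which 11.5% of all genes passed. Every siIGF2BP1 value lay above every siC value for HNF4G and CEBPB (11.9% of all genes) and below it for FOXA1 (15.1% of all genes). The median log2 change over the 8 genes was 0.0053, beside -0.017 over all genes tested. With 8 genes, counts of 0 to 2 lie near these backgrounds and are read as no result about the list. A p above the threshold does not show that a level stayed the same, and the intervals given for each gene bound the changes these libraries allow.

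HNF4G (ENSG00000164749, chr8:75407914-75566834, plus strand) had the largest change of the 8. It was at 5.22, 5.82 and 6.32 FPKM in siC replicates 1 to 3 and at 7.64, 7.56, 7.91 and 8.21 FPKM in siIGF2BP1 replicates 1 to 4. All 4 siIGF2BP1 libraries were higher than all 3 siC libraries. The mean was 135% of siC and the log2 change 0.43 (95% interval 0.24 to 0.62, limma adjusted p = 0.0167), from 418 to 896 reads per library. Without siC replicate 3 the log2 change was 0.50 (limma adjusted p = 0.0043), which passes 0.01 in a fit where 10.3% of genes do. Leaving out any other library gave limma adjusted p-values up to 0.0627.

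HNF4A (ENSG00000101076, chr20:44355699-44432845, plus strand), the main nuclear receptor of the hepatocyte, was at 52.1, 52.6 and 36.0 FPKM in siC and at 47.6, 46.1, 50.6 and 51.1 FPKM in siIGF2BP1. The siIGF2BP1 values lay between the low siC replicate 3 and the other siC libraries. The log2 change was 0.08 (95% interval -0.25 to 0.41, limma adjusted p = 0.785) and without siC replicate 3 it was -0.10 (95% interval -0.23 to 0.027, limma adjusted p = 0.217). The direction thus rested on 1 library. HNF4G was from 9.11% to 14.9% of the summed HNF4A and HNF4G FPKM, with both ends of that range in siC.

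FOXA1 (ENSG00000129514, chr14:37589552-37596059, minus strand) was at 23.0, 23.5 and 28.7 FPKM in siC and at 20.9, 20.1, 21.9 and 22.8 FPKM in siIGF2BP1. The groups did not overlap, but the highest siIGF2BP1 library lay just under the lowest siC library. The log2 change was -0.22 (95% interval -0.44 to 0.0018, limma adjusted p = 0.196), and -0.12 without siC replicate 3 (limma adjusted p = 0.193).

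FOXA2 (ENSG00000125798, chr20:22580998-22585455, minus strand), which also drives gut endoderm, was the most uneven of the 8. It was at 5.45, 5.28 and 12.7 FPKM in siC and at 6.70, 8.46, 5.77 and 5.98 FPKM in siIGF2BP1. The highest value was that of siC replicate 3, and the other siC libraries were below every siIGF2BP1 library. The log2 change was -0.11 (95% interval -0.85 to 0.64, limma adjusted p = 0.880) with all libraries and 0.30 (95% interval -0.070 to 0.68, limma adjusted p = 0.206) without siC replicate 3, so its direction could not be given. FOXA2 had the fewest reads of the 8, from 199 to 456 per library.

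FOXA3 (ENSG00000170608, chr19:45863989-45873797, plus strand), the FOXA gene most abundant per length here, was at 35.8, 35.7 and 32.0 FPKM in siC and at 35.7, 33.2, 37.9 and 40.6 FPKM in siIGF2BP1. The groups overlapped. The log2 change was 0.09 (95% interval -0.11 to 0.30, limma adjusted p = 0.566). FOXA3 made up from 43.5% to 58.6% of the summed FPKM of the 3 FOXA genes, and the lowest share was that of siC replicate 3.

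CEBPA (ENSG00000245848, chr19:33299934-33302534, minus strand), which promotes metabolic genes and restrains division, was at 249, 239 and 250 FPKM in siC and at 234, 219, 244 and 243 FPKM in siIGF2BP1. The groups overlapped. The log2 change was -0.07 (95% interval -0.23 to 0.095, limma adjusted p = 0.610), turning to 0.06 under quantile normalization. With 8288 to 20118 reads per library it was the best covered of the 8, and the interval leaves out changes of a size like that of HNF4G.

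CEBPB (ENSG00000172216, chr20:50190830-50192668, plus strand), known for its part in the acute phase response and in liver regeneration, was at 28.2, 25.6 and 22.7 FPKM in siC and at 33.0, 30.1, 32.9 and 34.6 FPKM in siIGF2BP1. All 4 siIGF2BP1 libraries were higher than all 3 siC libraries. The mean was 128% of siC and the log2 change 0.36 (95% interval 0.15 to 0.57, limma adjusted p = 0.0463). Without siC replicate 3 the log2 change was 0.28 (limma adjusted p = 0.0317), and leaving out other libraries gave limma adjusted p-values up to 0.128. After a trend with GC content was removed in each library, the limma adjusted p was 0.0034 for CEBPB and 0.0091 for HNF4G, both past 0.01, as were 6.66% of the genes that could be corrected. With siC replicate 3 left out as well, the limma adjusted p was 0.0011 for CEBPB and 0.0136 for HNF4G, which no longer passed.

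ONECUT1 (ENSG00000169856, chr15:52755053-52791078, minus strand) was at 9.17, 9.67 and 14.5 FPKM in siC and at 9.68, 13.0, 9.62 and 9.26 FPKM in siIGF2BP1. One library in each group, siC replicate 3 and siIGF2BP1 replicate 2, was higher than the rest. The log2 change was -0.08 (95% interval -0.53 to 0.37, limma adjusted p = 0.845), and 0.13 without siC replicate 3 (limma adjusted p = 0.563), so the direction again rested on that library.

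**Figure D2:**
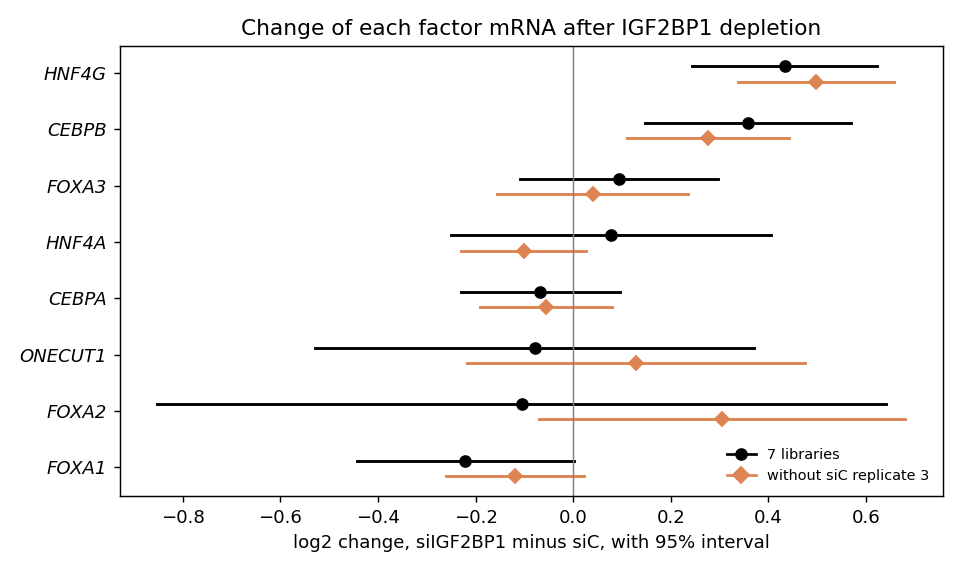
Log2 change in FPKM (siIGF2BP1 minus siC) of each factor mRNA with its 95% interval from limma, for all 7 libraries (black circles) and without siC replicate 3 (orange diamonds). HNF4G (0.43) and CEBPB (0.36) lie to the right of 0 in both fits, while HNF4A, FOXA2 and ONECUT1 change sides.

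Ratios within a library do not depend on how libraries were scaled, and 3 were compared between groups. CEBPA exceeded CEBPB by 8.84-, 9.31- and 11.0-fold in siC and by 7.10-, 7.28-, 7.44- and 7.01-fold in siIGF2BP1. The ratio was lower in every siIGF2BP1 library, by a mean log2 difference of -0.43 (exact two-sided permutation p = 0.0571, adjusted over the 3 ratios 0.171). With 35 arrangements 0.0571 is the smallest p this design allows, so no ratio could reach 0.05. The log2 difference was -0.33 without siC replicate 3.

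The HNF4A to HNF4G ratio was 9.97, 9.04 and 5.70 in siC and 6.23, 6.10, 6.39 and 6.23 in siIGF2BP1. Replicates 1 and 2 of siC were above, and replicate 3 below, all siIGF2BP1 libraries. This ratio is free of library scaling but not of a GC trend, since GC content is 54.9% in HNF4A and 35.9% in HNF4G. In siC replicate 3, HNF4A and HNF4G lay -0.54 and 0.19 from the other siC libraries on the log2 scale. After a GC trend was removed they lay at -0.28 and -0.08. The log2 difference was -0.35 (exact two-sided permutation p = 0.286, adjusted 0.429), and -0.60 without siC replicate 3. The FOXA1 to FOXA2 ratio ran from 2.26 to 4.45 in siC and from 2.37 to 3.81 in siIGF2BP1, with a log2 difference of -0.12 (exact two-sided permutation p = 0.686, adjusted 0.686) and of -0.42 without siC replicate 3.

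The factors took part unequally in the distance of siC replicate 3 from its group. FOXA2 was higher there than in siC replicates 1 and 2 by 1.23 on the log2 scale, a distance exceeded by 5.45% of the genes tested. ONECUT1 was higher by 0.62, which 22.8% of genes exceeded. HNF4A was lower by a log2 distance of -0.54, exceeded in size by 28.4%. CEBPA was at a distance of 0.04, exceeded by 94.0%. The same FOXA2 and ONECUT1 mRNAs were higher in siIGF2BP1 replicate 2 than in the other siIGF2BP1 libraries, by 0.46 and 0.45 on the log2 scale, which 12.1% and 12.4% of genes exceeded.

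Among the other liver transcription factors, PROX1 had log2 distances of 1.25 and 0.74 in these 2 libraries, ONECUT2 of 0.74 and 0.34, and NFIL3 of 0.61 and 0.47. Others of the same list lay lower in both libraries. ZGPAT had log2 distances of -0.73 and -0.30, GATA4 of -0.50 and -0.21, TBX3 of -0.47 and -0.21, and RXRA of -0.45 and -0.20. The list thus had no common direction in these libraries. ONECUT2, NFIL3, ZGPAT, TBX3 and RXRA were chosen after their values were seen. Over all genes tested the distances of the 2 libraries correlated at 0.201 across genes, as a description, and each followed GC content (Spearman's rho across genes -0.426 and -0.386). After the GC trend was removed, FOXA2 was at distances of 1.57 and 0.57 and ONECUT1 at 0.66 and 0.43, as far from their groups or nearly so, whereas HNF4A moved to -0.28. CEBPA and FOXA1 were then at 0.40 and 0.44 in siC replicate 3. What sets these libraries apart was not tested.

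**Figure D3:**
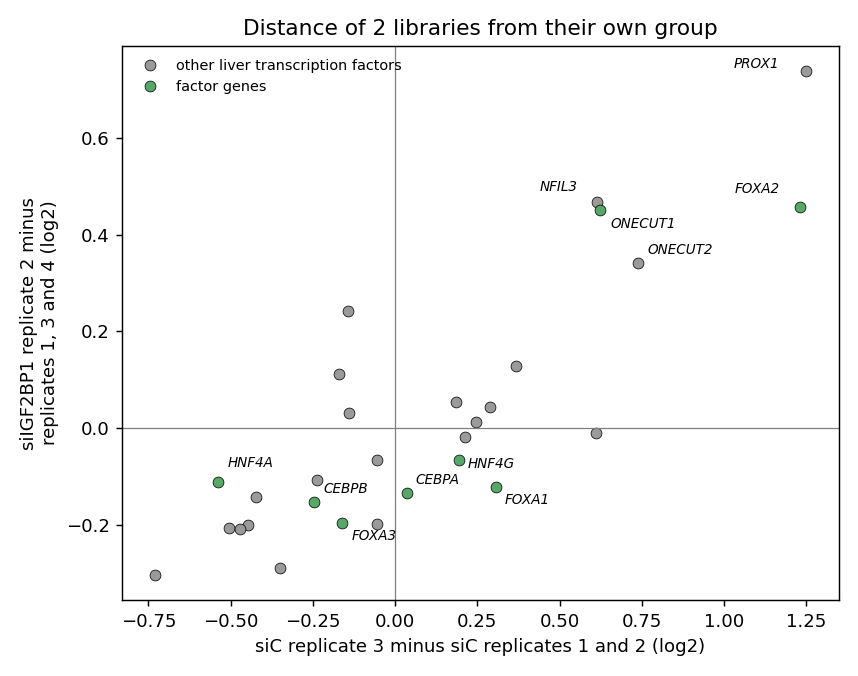
Distance of siC replicate 3 from siC replicates 1 and 2 (x axis, log2) against the distance of siIGF2BP1 replicate 2 from siIGF2BP1 replicates 1, 3 and 4 (y axis, log2), for the 8 factor genes (green) and 21 other liver transcription factors (grey). FOXA2 (1.23, 0.46), ONECUT1 (0.62, 0.45) and PROX1 (1.25, 0.74) lie at the upper right, and HNF4A lies at the lower left.

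Other transcription factors of the liver were mostly without a call as well. Of 23 listed, 21 were tested and 1 passed 0.01 (3.93% of all genes did), with a median log2 change of -0.04. CREB3L3, a membrane-bound factor active in fasting, rose from 2.86, 2.74 and 2.52 FPKM in siC to 4.06, 5.62, 5.13 and 5.09 in siIGF2BP1. Every siIGF2BP1 library was above the siC range, as for 11.9% of all genes. Its log2 change was 0.85, at a limma adjusted p of 0.0065, and it was 0.80 when siC replicate 3 was left out (limma adjusted p = 0.0082). Of the 7 fits that each leave out 1 library it passed in 2, those without siC replicate 3 and without siIGF2BP1 replicate 1.

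The 5 most abundant of these factors were XBP1, NR1H4, HHEX, PROX1 and GATA4. XBP1, which serves the secretory pathway, changed by 0.19 on the log2 scale, short of the threshold (limma adjusted p = 0.111). The bile acid receptor NR1H4 (0.01), HHEX (-0.04), PROX1 (-0.07) and GATA4 (0.01) all had limma adjusted p-values of at least 0.826.

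Of 8 relatives and regulators of the C/EBP factors, 7 were tested, 0 passed 0.01 in limma or voom, and 2 were higher at an unadjusted p under 0.05, as 25.9% of all genes differed in either direction. The median log2 change was 0.03. CEBPD, an acute phase relative of CEBPB named after its values were seen, was at 9.67, 8.64 and 7.24 FPKM in siC and at 13.9, 11.0, 12.8 and 12.6 in siIGF2BP1. Every siIGF2BP1 library was higher than every siC library, as for 11.9% of all genes, and the log2 change was 0.56 (limma adjusted p = 0.0268). CEBPB and CEBPD together with CEBPA and CEBPG gave a family total, of which CEBPA held from 72.3% to 77.3% in every library. Its share was lower in every siIGF2BP1 library (mean 72.9%) than in every siC library (mean 75.8%). Shares of CEBPB (means 10.1% in siIGF2BP1 and 7.84% in siC) and CEBPD (3.90% and 2.62%) were higher in every siIGF2BP1 library. Those of CEBPG overlapped. The shares were not tested.

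Textbook targets of the factors were then counted, in lists chosen with earlier results of these data known, so their counts are descriptions. Of 15 listed for HNF4A, 9 were tested and 1 rose, where 3.93% of all genes passed. This was APOC3, a regulator of plasma triglycerides. APOC3 was at 26.3, 28.9 and 22.7 FPKM in siC and at 41.9, 40.5, 41.8 and 47.3 FPKM in siIGF2BP1, a log2 change of 0.72 at a limma adjusted p of 0.0056. With 1 library left out it passed in 1 of 7 fits, that without siC replicate 3. The median over the 9 was 0.23. Without siC replicate 3, where 10.3% of all genes passed, 3 of the 9 did, namely APOC3 and TF, which were higher, and TTR, which was lower.

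Of 10 targets listed for the FOXA factors, 6 were tested and 1 rose (3.93% of all genes passed), CPS1, which begins the urea cycle. CPS1 was at 2.89, 2.63 and 2.41 FPKM in siC and at 7.01, 6.67, 7.41 and 6.96 FPKM in siIGF2BP1 (1.38 on the log2 scale, limma adjusted p = 0.00043), and it passed 0.01 with each library left out in turn. The median over the 6 was -0.03. Without siC replicate 3, CPS1 and TTR passed, TTR with a lower level, in a fit that called 10.3% of all genes.

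Of 12 targets listed for the C/EBP factors, 7 were tested and 2 rose, beside 3.93% of all genes called. CPS1, which this list shares, was one of them. HP, the haemoglobin scavenger haptoglobin, was the other, at 2.91, 3.01 and 1.63 FPKM in siC and at 9.50, 8.81, 7.96 and 9.09 FPKM in siIGF2BP1 (1.82 on the log2 scale, limma adjusted p = 0.0029). HP passed in 1 of the 7 fits with 1 library left out, that without siC replicate 3. ORM1, HPX and CEBPD passed 0.05 but not 0.01. The median over the 7 was 0.91, and without siC replicate 3 there were 5 past 0.01 (10.3% of all genes), with CPS1, HP, ORM1 and HPX higher and FGB lower. The part of the factors in these changes was not tested.

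**Figure D4:**
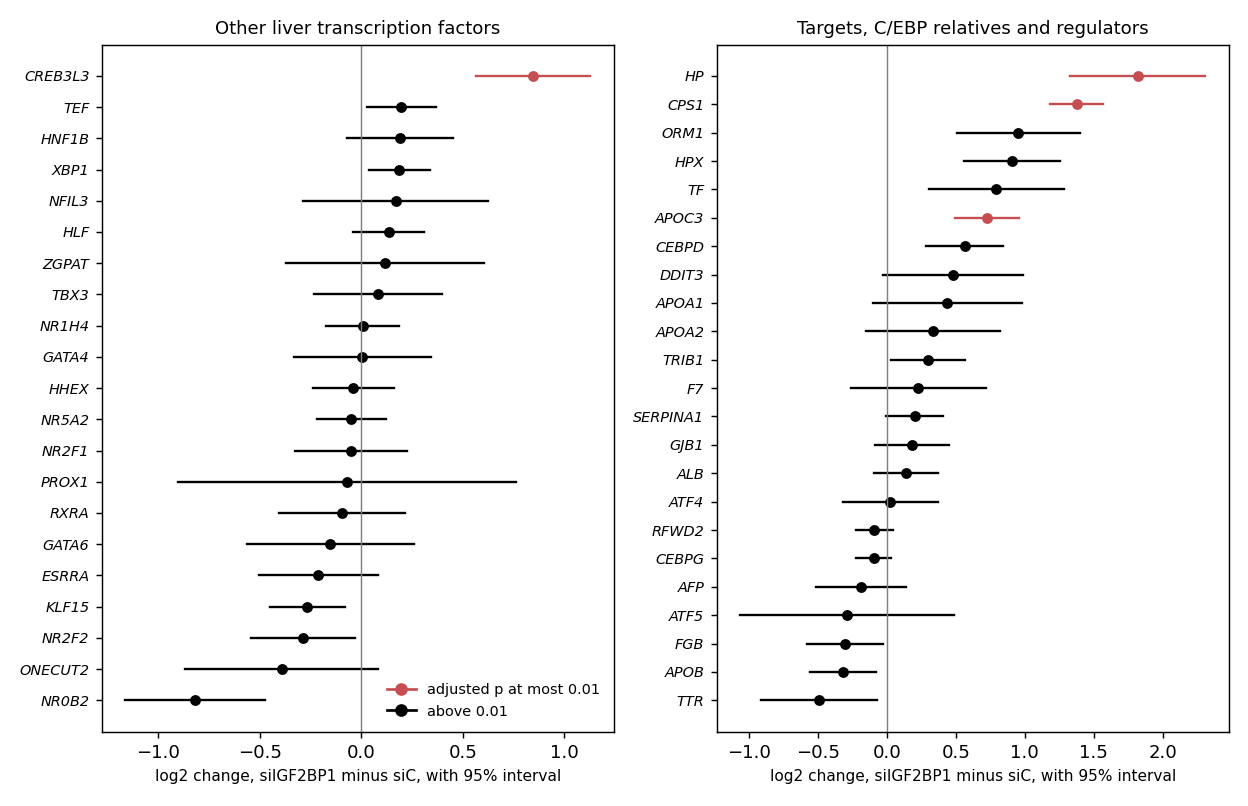
Log2 change in FPKM (siIGF2BP1 minus siC) with 95% intervals from limma for 21 other liver transcription factors (left) and for textbook targets and C/EBP relatives and regulators (right), sorted by change. Red marks a limma adjusted p of at most 0.01: CREB3L3 (0.85) on the left, and HP (1.82), CPS1 (1.38) and APOC3 (0.72) on the right.

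Markers of other lineages gave few calls beside these. SOX9, a biliary and progenitor factor, fell from 31.7 ± 4.60 FPKM in the 3 siC libraries to 18.9 ± 0.580 FPKM in the 4 siIGF2BP1 libraries (SD), by 0.73 on the log2 scale at a limma adjusted p of 0.0051, and it was the 1 of 4 tested biliary markers that passed. Its call was lost in 6 of the 7 fits with 1 library left out, all but that without siC replicate 3, and no biliary marker passed with no filter, quantile normalization or GC removal. Voom called 2 of the 4 biliary markers and library weights called 3, all lower, in fits that called 5.67% and 18.5% of all genes. LGR5, a Wnt target of progenitor cells, rose from 6.83 ± 0.502 to 12.0 ± 0.465 FPKM in the same libraries (SD; 0.81 on the log2 scale, limma adjusted p = 0.0012), the 1 of 3 tested intestine and pancreas markers, and it passed in 7 of 7 such fits. None of the 10 hepatocyte and hepatoma markers and neither of the 2 tested mesenchymal, endothelial and blood markers passed 0.01 in limma. At an unadjusted p under 0.05, 6 of the 10 (3 lower, 3 higher) and 1 of the 2 did, beside 25.9% of all genes. Without siC replicate 3, where 10.3% of all genes passed, 4 of the 10 hepatocyte and hepatoma markers passed (2 lower, 2 higher), 2 of the 4 biliary markers (both lower), 1 of the 3 intestine and pancreas markers (higher) and 1 of the 2 mesenchymal, endothelial and blood markers (higher).

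RNAs that lie beside the factor genes were read with care, since the sources do not say whether reads were counted by strand. Of 4 listed, 2 were tested and 0 passed 0.01 in limma or voom, with 1 higher at an unadjusted p under 0.05 (25.9% of all genes). HNF4A-AS1, within the HNF4A locus on the other strand, shares 0 exon bases with it, and its log2 change of 0.59 had a limma adjusted p of 0.155. The miRNA gene MIR3646, on the strand of HNF4A, shares 84 exon bases with it and was at a mean of 12.4 FPKM. CEBPB shares 231 exon bases with CEBPB-AS1, whose mean over all libraries was 0.238 FPKM. CEBPA overlaps a pair of lncRNAs on the other strand by 659 and 482 exon bases, at 0.355 and 3.01 FPKM. FOXA1 shares 16 exon bases with TTC6, while HNF4G, FOXA2, FOXA3 and ONECUT1 overlapped no annotated gene. HNF4A-AS1, MIR3646, CEBPB-AS1 and TTC6 are named here after their values were seen.

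Genes whose pattern over the 7 libraries was most like that of HNF4A were PITPNA (Pearson's r 0.997), PARK7 (0.997) and SERPINA5 (0.996), of 10671 protein-coding genes tested. For HNF4G they were SMAD9 (0.990), DEPDC1B (0.989) and STK38L (0.986). The points share their libraries, depth and GC trend, so these values describe likeness over 7 libraries only.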

How the data were processed

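Total RNA behind 3 siC and 4 siIGF2BP1 libraries of Huh-7 cells was depleted of ribosomal RNA (RiboCop), made into directional libraries (NEBNext) and sequenced on a NextSeq 500 by the authors. Per the study's methods and the submitters' processing notes, the authors used cutadapt 1.14, HISAT2 2.1.0, SAMtools 1.5, featureCounts 1.5.3 and edgeR 3.18.1 on the hg38 genome with an Ensembl annotation. Counting by strand is not given in the sources used here.

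The authors deposited FPKM per gene and library. The authors also deposited a log2 fold change, a p-value and an FDR, which were not used. FPKM times gene length gave whole reads for 100.0% of low values (tolerance 0.05), from which depth was computed, with scale factors from 0.964 to 1.03.

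Genes that averaged 1 FPKM or more were tested with limma 3.58.1 (R 4.3.3; mean-variance trend) on log2(FPKM + 0.1), two-sided, Benjamini-Hochberg adjusted over 14839 genes, threshold 0.01. A log2 change on this scale understates the change of low genes. Voom on the recovered reads stood in for a count test as an alternative. Ratios were tested by exact permutation (scipy 1.17.1). The fit was tested on simulated data: fitted sizes were close to the simulated ones, most of the larger changes were called and most of the smaller ones were not, so a gene without a call may have changed. The share of larger changes required to pass this test was lowered after a repeat with another random seed fell short of it. Groups came from sample titles. Other alternatives were the pseudocount, filters, scalings, library weights (limma's gene-by-gene array weights, since the REML weights did not converge), removal of a trend with GC content, a replicate block and leaving out each library; voom or GC removal without siC replicate 3 was added after seeing the data.

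The factor genes and all gene lists were chosen with earlier results of these data known. Genes named are the 8 factors, IGF2BP1, listed genes past the threshold, the 5 most abundant other liver factors, and the 3 protein-coding genes most like HNF4A and HNF4G. Other listed genes named in counts or as absent markers were chosen after their values were seen. A listed gene and its neighbouring RNA are not reported here and stand outside the list counts.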

Additional observations from a re-analysis of the deposited data

Results flagged for a closer look

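In the 4 siIGF2BP1 libraries, 2 of 29 results had 1 library far from the others by Dixon's test, where chance gives about 1 in 20. IGF2BP1 was entered 2 times among the 29. Groups of 3 were not tested. ONECUT1 was high in siIGF2BP1 replicate 2, with a gap to the nearest library of 0.892 of the whole range. NR0B2, a corepressor of nuclear receptors, was low in siIGF2BP1 replicate 3 (0.884). It had 29 reads there and 56, 56 and 40 in siIGF2BP1 replicates 1, 2 and 4, so the gap rests on few reads.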

How the results depend on the processing

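Each of the 8 factor genes was read under 22 alternatives, among them the main fit at a threshold of 0.05 in place of 0.01. HNF4G stayed positive in all of them (0.36 to 0.50). It passed the threshold of the setting in 6, CEBPB (0.28 to 0.44) in 5, and the other 6 genes in none. The settings in which either passed called from 6.66% (GC removal) to 22.3% (voom without siC replicate 3) of all genes, against 3.93% in the main fit. For HNF4G and CEBPB these counts include the main fit at 0.05. FOXA1 stayed negative and FOXA3 positive. Signs turned with library weights for HNF4A (-0.088), FOXA2 (0.25) and ONECUT1 (0.053), without siC replicate 3 for HNF4A (-0.10), FOXA2 (0.30) and ONECUT1 (0.13), with voom and no siC replicate 3 for HNF4A (-0.10), FOXA2 (0.34) and ONECUT1 (0.14), with the GC trend and siC replicate 3 both taken out for FOXA2 (0.45), CEBPA (0.11) and ONECUT1 (0.17), and for CEBPA with quantile normalization (0.065). With 1 library left out, HNF4A ran from -0.10 to 0.17, FOXA2 from -0.32 to 0.30 and ONECUT1 from -0.20 to 0.13. The fit without siC replicate 3 has fewer samples. Otherwise the cause was not tested. FOXA2, with as few as 199 reads, is limited by depth as well as by spread.

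Counts past the threshold, 0 for the factor genes, were 2 with library weights, GC removal, a threshold of 0.05 or voom without siC replicate 3, and 1 with protein-coding genes only or with GC removal and no siC replicate 3. Leaving out 1 library gave 0 to 1 for the factors, 0 to 1 for other liver factors, 0 to 1 for C/EBP relatives, 0 to 3 for HNF4A targets, 1 to 2 for FOXA targets and 1 to 5 for C/EBP targets. For other liver factors (1) the count was 0 with no filter or a minimum of 5 FPKM, 2 with quantile normalization, protein-coding genes only or a threshold of 0.05, 3 with library weights and 4 with voom without siC replicate 3. For C/EBP relatives (0) it was 3, 1, 1, 3 and 2 with library weights, GC removal, a threshold of 0.05, voom without siC replicate 3 and GC removal without it. HNF4A targets (1) gave 0 with no filter and 4, 5 and 4 with library weights, voom without siC replicate 3 and GC removal without it. FOXA targets (1) gave 2 with quantile normalization, 4 with library weights, and 5 and 2 with voom and with GC removal without siC replicate 3. C/EBP targets (2) gave 5 with quantile normalization, GC removal or a threshold of 0.05, 4 with protein-coding genes only or voom, and 6 with library weights, voom or GC removal without siC replicate 3.

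Over all genes tested in each setting, the 583 calls (3.93%) became 352 (1.03%) with no filter, 871 (8.16%) with protein-coding genes only and 980 (6.66%) with GC removal. They became 2744 (18.5%) with library weights and 1713 (11.5%) at 0.05. Without siC replicate 3 they were 3309 (22.3%) with voom and 1579 (10.7%) with GC removal. With 1 library left out they were 129 to 1523 (0.869% to 10.3%). Quantile normalization called 3.63%, a minimum of 5 FPKM 5.89% and voom 5.67%. Each list count above is to be read beside the share of its setting.

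Same-numbered libraries did not deviate together (correlations of deviations -0.026, -0.12 and -0.11 for numbers 1 to 3, and 0 of 6 libraries correlated best with its own number). With so few libraries, and siC replicate 3 far from its group, this cannot settle whether the numbers pair the samples. With a replicate block limma called 0 of 14839 genes (2389 at an unadjusted p under 0.05), so the count was 0 for every list, with or without GC removal. In the block fit siIGF2BP1 replicate 4 has no siC partner and drops out of the estimate, which leaves fewer libraries to test with. The count of 0 therefore does not show that the calls depend on pairing. IGF2BP1 had a log2 change of -2.36 (limma adjusted p = 0.0909) with the block, HNF4G one of 0.41 and CEBPB one of 0.33. ONECUT1 turned to 0.0021 with the block and GC removal. The log2 ratio of FOXA1 to FOXA2 ran from -0.42 to 0.059 with 1 library left out, turning positive without siC replicate 1 (0.019), siC replicate 2 (0.059) or siIGF2BP1 replicate 2 (0.029). The other 2 ratios stayed negative.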

Other observations

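ADH1B, a hepatocyte alcohol dehydrogenase listed among the C/EBP targets, stayed under the filter and was chosen after its values were seen. Only the fit with no filter tested it, and its own result there is not given here. That fit called 3 of the 12 listed C/EBP targets, all higher, beside 1.03% of all genes. ADH1B was at 0.0170, 0.0579 and 0.0472 FPKM in siC (4, 20 and 7 reads) and at 0.661, 0.737, 0.868 and 0.658 FPKM in siIGF2BP1 (129, 149, 124 and 92 reads). All 4 siIGF2BP1 libraries were above all 3 siC libraries, as they were for 11.9% of the genes that passed the filter. NR0B2, also chosen after its values were seen, had a log2 change of -0.82 (limma adjusted p = 0.0147).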
